A study of Mus musculus with 6 samples.

Results

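The 10 genes described here encode chaperones and folding enzymes of the endoplasmic reticulum (ER): Calr, Canx, Hspa5, Hsp90b1, Pdia3, Pdia4, Pdia6, Sdf2l1, Dnajb9 and Manf. They were found by symbol among the 47643 genes listed in the processed files. All 10 had a row, and all 10 passed the filter on low counts that left 11574 genes for testing. The set was chosen on a measured value, the higher Calr of the Ccn1 knockout libraries, and was filled by function with other ER chaperones. The difference of Calr between the genotypes is therefore given as a description with no test.

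The RNA came from ependymal cells, the multiciliated cells that line the brain ventricles, isolated as GFP-positive cells from the V-SVZ (ventricular-subventricular zone) in adult mice. All animals had received tamoxifen, a drug that activates an inducible recombinase, and cells were collected 2 days later. Recombination switched on GFP and, in the conditional knockout (CKO), removed Ccn1, which encodes a secreted matricellular protein. The control (CTR) is given only as Ctrl, sorted by the same GFP gate, which had been set against wild-type cells. There were 3 libraries of each genotype, 6 in all. For the driver of the recombinase, the control alleles and any pooling of animals, nothing is given in the sources used here. The labels name the molecule total RNA and also describe it as cytoplasmic RNA.

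The ER is where secreted and membrane proteins fold. Hspa5 (BiP), an Hsp70 chaperone, holds unfolded chains with the help of J-domain partners and hands some of them to Hsp90b1 (GRP94). Calr and Canx bind the glucose-trimmed sugar of new glycoproteins, and protein disulfide isomerases form and shuffle disulfide bonds. When unfolded protein builds up, the sensors ATF6, IRE1 and PERK raise the transcription of such chaperones, and a sequence in their promoters, the ER stress response element, is the site through which ATF6 is known to act.

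Promoter sequence was examined for this element because it is the regulatory feature that links chaperone genes. RefSeq windows on GRCm38.p6, from 250 bases before to 50 after the transcription start, were matched by symbol for 9 of the 10 genes (Manf had no entry). The full element, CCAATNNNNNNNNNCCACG, searched on both strands, was found in 5 of the 9 windows, against 39 of 32851 windows of the same length over all genes (0.119%). These 5 were Calr, Canx, Hspa5, Hsp90b1, which held 2 copies, and Pdia6. The sites, written 5′ to 3′ in the direction of the element with its fixed bases in capitals, were the following.
Hspa5: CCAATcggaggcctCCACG
Pdia6: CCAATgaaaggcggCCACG
Canx: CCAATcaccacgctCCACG
Calr: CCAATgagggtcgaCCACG
Hsp90b1, far copy: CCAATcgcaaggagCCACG
Hsp90b1, near copy: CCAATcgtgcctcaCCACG

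Counting along the gene from the RefSeq start, with -1 as the base before it, the upstream edge of the element lay at -65 in Hspa5, -98 in Pdia6, -145 in Canx and -162 in Calr. Those of the copies in Hsp90b1 lay at -212 and -107. The element of Calr and the near copy in Hsp90b1 were on the strand opposite to the gene. With the last base of the element free (CCAATNNNNNNNNNCCACN, which holds every full match too), 7 of the 9 windows matched, against 0.365% of all windows. The added genes were Pdia3 and Pdia4, whose sites are shown with the 9 fixed bases in capitals.
Pdia3: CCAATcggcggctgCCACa
Pdia4: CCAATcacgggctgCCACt

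Dnajb9 and Sdf2l1 held neither form in this window, and each had a CCAAT box, which all 9 windows had (37.4% of all windows do). By GENCODE M21, Hspa5, Pdia3, Dnajb9, Hsp90b1, Pdia6 and Calr start further upstream than in RefSeq. The elements of Hsp90b1, Pdia6 and Calr still lie upstream of that earlier start, but nearer to it than the distances above. The sites of Hspa5 and Pdia3 then lie within the gene. So does the whole Dnajb9 window, so sequence upstream of that earlier start was not searched for Dnajb9. The unfolded protein response element TGACGTGG, searched on both strands, was in 0 of the 9 windows, against 0.676% of all windows. A match is a description of the letters only. Because the element is known from promoters of such chaperones, its share among these genes is no test. Among the other ER folding genes, 3 of 30 matched genes held the full element: Creld2, Dnajc3 and Ero1b.

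**Figure D1:**
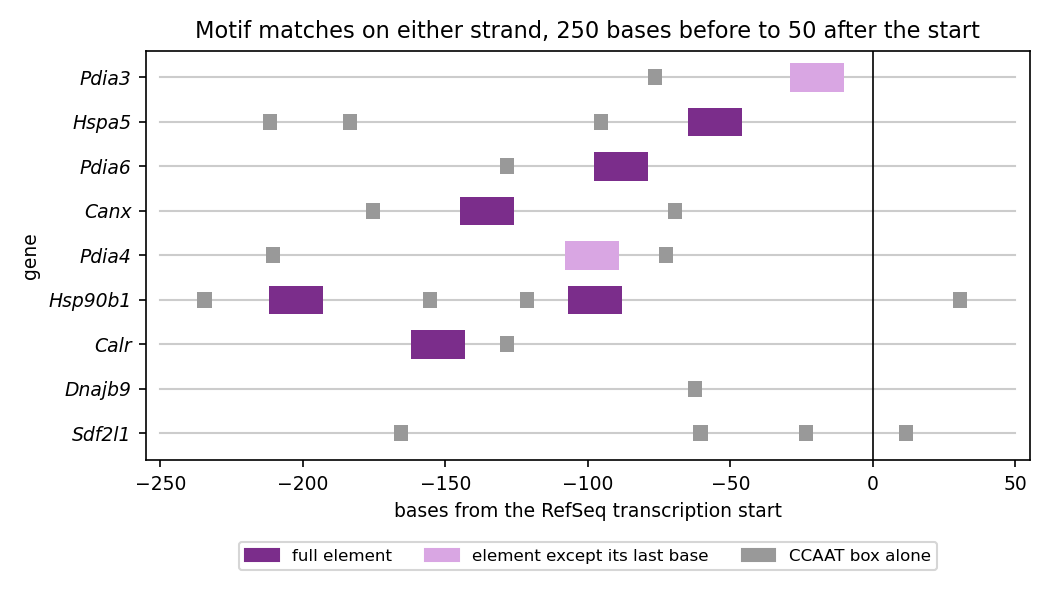
Map of 9 promoter windows, with distance from the RefSeq start in bases on the x axis and 1 line per gene. Dark boxes mark the full ER stress response element, light boxes the element except its last base and grey boxes a CCAAT box alone, on either strand. The full element sits upstream of the RefSeq start in 5 genes and its near form in Pdia3 and Pdia4.

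The upstream stretches of Calr, Canx and Hsp90b1 are shown whole to place the element, in the direction of the gene and ending before the start given by RefSeq or GENCODE M21, whichever comes first. Fixed bases of the element are in capitals, and read as the reverse complement where the site is on the opposite strand. The stretches are chr8:84846935-84847181 for Calr, chr11:50325674-50325923 for Canx and chr10:86705510-86705694 for Hsp90b1, all on the minus strand.
Calr: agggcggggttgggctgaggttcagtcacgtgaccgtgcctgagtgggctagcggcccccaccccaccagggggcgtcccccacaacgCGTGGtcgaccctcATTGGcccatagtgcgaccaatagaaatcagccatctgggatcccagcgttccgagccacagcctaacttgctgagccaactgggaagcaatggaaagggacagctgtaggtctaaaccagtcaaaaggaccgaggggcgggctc
Canx: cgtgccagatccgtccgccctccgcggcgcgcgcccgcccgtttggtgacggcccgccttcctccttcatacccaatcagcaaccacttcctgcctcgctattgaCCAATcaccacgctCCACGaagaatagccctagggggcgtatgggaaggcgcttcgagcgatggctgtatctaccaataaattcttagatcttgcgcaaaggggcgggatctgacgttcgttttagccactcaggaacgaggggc
Hsp90b1: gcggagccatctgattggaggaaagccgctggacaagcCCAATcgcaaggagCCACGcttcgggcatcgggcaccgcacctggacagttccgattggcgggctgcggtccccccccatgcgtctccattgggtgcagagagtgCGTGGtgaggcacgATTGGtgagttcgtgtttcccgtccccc

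The targeted gene was read first in each library. Ccn1 stood at 18.7, 11.6 and 23.7 TPM (a level scaled for transcript length and library size) in CKO 1, 2 and 3. It stood at 63.6, 98.7 and 93.5 TPM in CTR 1, 2 and 3, so the groups did not overlap. The log2 difference, CKO minus CTR, was -2.22 ± 0.38 (SE; edgeR quasi-likelihood p = 0.000415 for this single test, exact permutation p = 0.1, the smallest that 3 against 3 allows). Adjusted over all genes, the edgeR p of Ccn1 was 0.99999, so edgeR did not call the targeted gene. DESeq2 did call it, at an adjusted p of 4.1e-06. Total estimated counts ran from 13401499 to 15689579 per library. CTR 1 had the fewest genes detected (12460, where the most in any library was 14530) and the highest share of counts from mitochondrially encoded genes (8.38%, against 6.43 to 7.49% in the other 5).

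Calr and Canx are the lectin chaperones of the ER, Calr soluble and Canx anchored in the membrane, and Pdia3 (ERp57) is the disulfide isomerase that works with both. Calr (ENSMUSG00000003814.8, chromosome 8 from 84841850 to 84846934 in GRCm38 by GENCODE M21) stood at 145, 124 and 102 TPM in CKO 1, 2 and 3. In CTR 1, 2 and 3 it stood at 41.6, 85.7 and 87.6 TPM. The lowest CKO library was above the highest control, and CTR 1 was far below the other controls.

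Calr averaged 124 ± 21.8 TPM in the CKO and 71.6 ± 26.02 TPM in the control (SD, n = 3 each), a ratio of 1.73. The fitted log2 difference from counts was 0.81 ± 0.29 (SE), and 0.58 without CTR 1. The estimated counts behind Calr were 3501, 2797 and 2464 for CKO and 1191, 1936 and 2281 for CTR.

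Canx (ENSMUSG00000020368.15, chromosome 11 from 50293961 to 50325673) stood at 207, 243 and 193 TPM in the CKO libraries and at 181, 177 and 200.2 TPM in the controls. The groups overlapped through CKO 3. Its log2 difference was 0.18 ± 0.15 (SE; 95% interval -0.16 to 0.52, edgeR). The ratio of Calr to Canx, both in TPM, was 0.702, 0.511 and 0.528 for CKO and 0.23, 0.484 and 0.437 for CTR. Like the level of Calr, from which it is made, this ratio did not overlap between the genotypes and was lowest in CTR 1.

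Pdia3 (ENSMUSG00000027248.13, chromosome 2 from 121413775 to 121438687) stood at 442, 316 and 447 TPM in the CKO libraries and at 256, 400.2 and 388 TPM in the controls. CKO 2 and CTR 1 were the low libraries, 1 in each genotype, and the groups overlapped. The log2 difference was 0.23 ± 0.20 (SE; 95% interval -0.25 to 0.70, edgeR).

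Hspa5 and Hsp90b1 are the Hsp70 and Hsp90 of the ER. Hspa5 (ENSMUSG00000026864.13, chromosome 2 from 34771970 to 34777547) stood at 320.0, 391 and 298 TPM in the CKO libraries and at 301, 403 and 370.2 TPM in the controls. Both genotypes spanned nearly the same range. The log2 difference was -0.09 ± 0.15 (SE; 95% interval -0.43 to 0.25, edgeR).

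Hsp90b1 (ENSMUSG00000020048.13, chromosome 10 from 86690209 to 86705509) stood at 134, 190.3 and 248 TPM in the CKO libraries and at 62.3, 182 and 116 TPM in the controls. CKO 3 was the highest library and CTR 1 the lowest, and the groups overlapped through CTR 2. Its mean was 191 ± 56.9 TPM in the CKO and 120.0 ± 59.9 TPM in the control (SD, n = 3 each). The log2 difference of 0.70 ± 0.37 (SE; 95% interval -0.15 to 1.55) was close to that of Calr in size and had an edgeR p of 0.0924 before adjustment. It ran from 0.43 without CTR 1 to 1.09 without CTR 2.

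Hsp90b1 is also the member that shares the most exonic bases with other genes. Of its 4032 exonic bases, 632 overlap other annotated genes, and in 0 of 6 libraries was its estimated count whole to within 0.01. Such a count can arise where kallisto, the quantifier in the submitters' processing notes, divides reads between genes. How many reads were divided was not measured. The strand used in counting is not given, so reads of overlapping genes cannot be told apart. Hspa5 was whole in 4 libraries and Manf in 5, and the other 7 members in all 6. Manf shares 326 of its 3524 exonic bases with other genes.

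**Figure D2:**
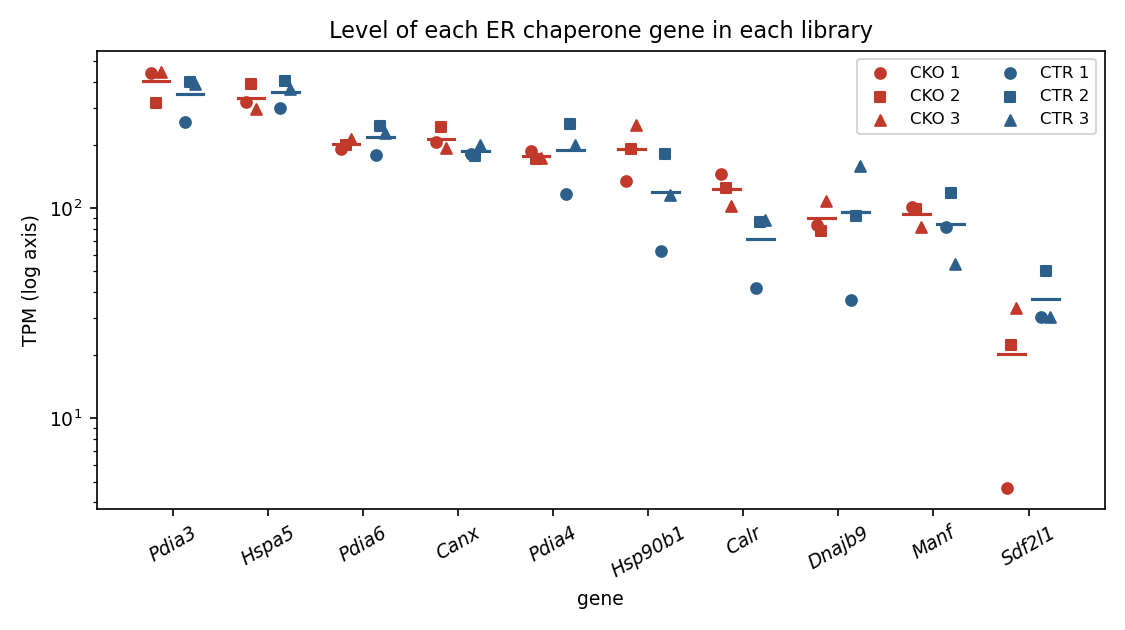
TPM of each ER chaperone gene (log axis) in each of the 6 libraries, with CKO in red, CTR in blue, 1 symbol per replicate number and a line at each group mean. Calr is the gene whose CKO libraries all lie above the controls; Sdf2l1 is the lowest gene and is at 4.66 TPM in CKO 1.

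Dnajb9, Sdf2l1 and Manf are partners of Hspa5. Dnajb9 (ERdj4) is a J-domain co-chaperone, Sdf2l1 joins J-domain proteins in the Hspa5 complex, and Manf binds Hspa5 and can be secreted as a trophic factor. These 3 genes were the lowest members by mean TPM.

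Dnajb9 (ENSMUSG00000014905.3, chromosome 12 from 44205559 to 44210326) stood at 83.3, 78.1 and 109 TPM in the CKO libraries and at 36.6, 91.8 and 159 TPM in the controls. The lowest and the highest library were both controls, CTR 1 and CTR 3, so the control range enclosed the CKO. The log2 difference was -0.05 ± 0.46 (SE; edgeR 95% interval -1.11 to 1.01), and its sign depended on the fit.

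Sdf2l1 (ENSMUSG00000022769.7, chromosome 16 from 17130138 to 17132383) stood at 4.66, 22.4 and 33.6 TPM in the CKO libraries and at 30.2, 50.3 and 30.4 TPM in the controls. The counts behind these values were 49, 219 and 354 for CKO and 378, 495 and 346 for CTR. CKO 1 was the lowest library by far, and CKO 3 reached into the control range. The log2 difference of -0.86 ± 0.92 (SE; 95% interval -2.98 to 1.26, edgeR) was -0.39 without CKO 1.

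Manf (ENSMUSG00000032575.16, chromosome 9 from 106838312 to 106891979) stood at 101, 99.3 and 81.1 TPM in the CKO libraries and at 81.0, 118 and 54.0 TPM in the controls. CTR 3 was the low library, and the CKO lay inside the control range. The log2 difference was 0.14 ± 0.36 (SE; 95% interval -0.69 to 0.97, edgeR), and -0.13 without CTR 3.

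Pdia4 (ERp72) and Pdia6 (P5) are disulfide isomerases that associate with Hspa5 in large chaperone complexes. Pdia4 (ENSMUSG00000025823.9, chromosome 6 from 47796141 to 47813430) stood at 188, 171 and 174 TPM in the CKO libraries and at 117, 253 and 200.1 TPM in the controls. The 3 CKO libraries sat close together inside a wide control range, with CTR 1 lowest and CTR 2 highest. The log2 difference was -0.07 ± 0.24 (SE; edgeR 95% interval -0.63 to 0.48).

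Pdia6 (ENSMUSG00000020571.12, chromosome 12 from 17266545 to 17284770) stood at 191, 199.5 and 213 TPM in the CKO libraries and at 179, 247 and 229 TPM in the controls. CTR 1 was below every CKO library and the other 2 controls above every one. The log2 difference was -0.11 ± 0.16 (SE; 95% interval -0.48 to 0.27, edgeR).

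By sign of the log2 difference, 5 of the 10 genes were higher in CKO and 5 lower, and the median was 0.04 (-0.02 without CTR 1). These values include Calr, on which the set was chosen. Of the other 9 members, 4 were higher and 5 lower, with a median of -0.05. Among all 11574 tested genes 5823 were higher, 5751 were lower and the median was 0.00441. The edgeR quasi-likelihood test called 0 of the 10 at a Benjamini-Hochberg adjusted p of 0.05, where it called 0% of all genes. Since it did not call even Ccn1, its 0 calls here and in the lists below do not show that genes were unchanged. Leaving Calr aside, 0 members were under an unadjusted edgeR p of 0.05, as 318 of all genes were. DESeq2 also called 0 of the 10, where it called 1.63% of the genes it tested, and limma-voom called 0.

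In CPM, counts scaled to library size, Calr was the 1 gene of 10 with all CKO libraries above all controls, against 4.99% of all genes, and 0 of 10 lay wholly below, against 4.62%. Since the set was chosen from this comparison, nothing is read from these counts. Of the 5 genes with a full ER stress response element, Calr, Hsp90b1 and Canx had a positive log2 difference and Hspa5 and Pdia6 a negative one. Whether animals or sorts were separate is not given, so p-values measure the spread between these libraries only.

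**Figure D3:**
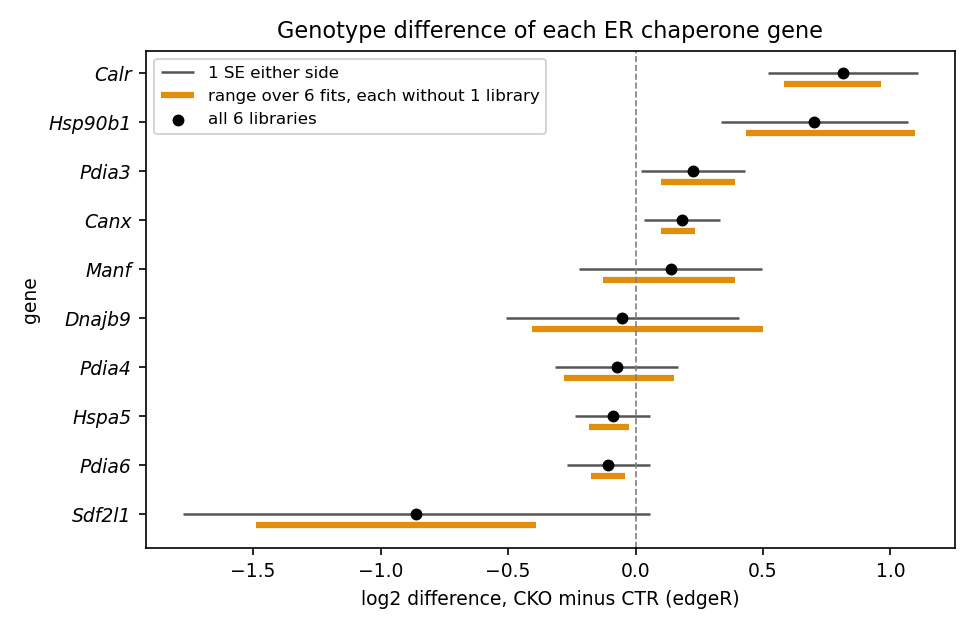
Log2 difference of each ER chaperone gene, CKO minus CTR, on the x axis, with points for the fit of all 6 libraries, thin lines for 1 SE either side and thick lines for the range over 6 fits that each leave out 1 library. Calr and Hsp90b1 lie highest, at 0.81 and 0.70, and Sdf2l1 lowest at -0.86 with the widest error.

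By level, in TPM over all 6 libraries, Pdia3 (375 ± 75.1, SD, n = 6) and Hspa5 (347 ± 46.7) were highest. Pdia6 (209.7 ± 25.0), Canx (200.3 ± 23.9), Pdia4 (184 ± 44.1) and Hsp90b1 (155 ± 65.0) followed. Calr (97.7 ± 35.8), Dnajb9 (93.0 ± 40.4) and Manf (89.0 ± 22.1) were lower, and Sdf2l1 (28.6 ± 14.9) was lowest, 13.1-fold below Pdia3. Of the 9 pairs of neighbours in this order, 2 kept it in 6 of 6 libraries: Hspa5 over Pdia6, by 1.65-fold, and Manf over Sdf2l1, by 3.70-fold. For these the exact two-sided sign-flip permutation p was 0.0313, the smallest that 6 libraries allow, and 0.141 adjusted over the 9 pairs. The remaining 7 pairs of neighbours changed order between libraries, and 0 of 9 passed after adjustment. By mean TPM among all genes listed, Pdia3 ranked 427, Hspa5 465 and Sdf2l1 3600.

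The spread between libraries differed among the members. Canx, Pdia6 and Hspa5 had a coefficient of variation of 11.9%, 11.9% and 13.5% over the 6 libraries in TPM. Pdia3, Pdia4 and Manf had 20.03%, 24.0% and 24.8%. Calr (36.6%), Hsp90b1 (41.9%), Dnajb9 (43.4%) and Sdf2l1 (52.2%) varied most.

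CTR 1 was the lowest library for 6 of the 10 genes in TPM (Calr, Hsp90b1, Pdia3, Pdia4, Pdia6 and Dnajb9) and for 5 in CPM. CTR 2 was the highest for 5. In log2 CPM, the distance of CTR 1 from the gene mean was -1.002 for Calr, -1.06 for Hsp90b1 and -1.08 for Dnajb9. For Canx, Hspa5, Pdia6 and Manf it was within 0.1 of the mean, and for Sdf2l1 it was 0.50 above. The part that the lower gene number and higher mitochondrial share of CTR 1 had in this was not tested.

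**Figure D4:**
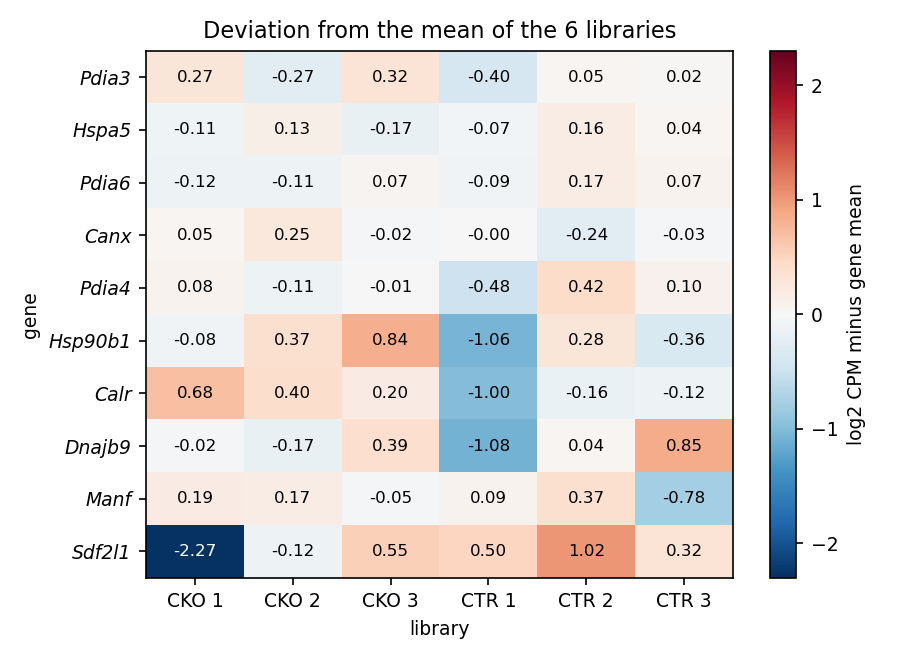
Log2 CPM of each gene in each library minus the mean of that gene over the 6 libraries, in color and in digits, with genes in order of mean TPM. CTR 1 is low for Hsp90b1 (-1.06), Calr (-1.002) and Dnajb9 (-1.08), and CKO 1 is low for Sdf2l1 (-2.27).

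Together the 10 genes summed to 1816, 1834 and 1897 TPM in the CKO libraries and to 1286, 2007 and 1835 TPM in the controls. Only CTR 1 stood apart, and the other 5 libraries lay between 1816 and 2007 TPM. Calr made up 8.01%, 6.77% and 5.37% of this sum for CKO and 3.23%, 4.27% and 4.77% for CTR. Pdia6 made up 10.5%, 10.9% and 11.3% for CKO and 13.9%, 12.3% and 12.5% for CTR. Shares of 1 sum move against each other, so a higher share of Calr lowers those of the others. Pdia3 and Hspa5 were the largest parts, at 17.2 to 24.3% and 15.7 to 23.4% over the 6 libraries.

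Agreement between members across libraries was low in most pairs. Over the 45 pairs of members, Pearson's r of log2 CPM across the 6 libraries ran from -0.82 (Canx and Pdia6) to 0.70 (Pdia4 and Pdia6), with a median of 0.07 and 29 pairs above 0. Calr and Hsp90b1 had r = 0.68 over all 6 libraries and 0.07 without CTR 1. Calr and Pdia3 had 0.63 and 0.16. These are descriptions over 6 points from 2 genotypes that share library depth and composition.

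The mean standardized log2 CPM of the 10 genes was lowest in CTR 1 (-0.86) and highest in CTR 2 (0.47). The 5 genes with the profile most like it, among 3456 others with a mean of at least 50 CPM, were Wdr54 (r = 0.99), Keap1 (0.98), Pam (0.98), Lsm10 (0.98) and Tpm1 (0.97), over 6 libraries. With so few libraries and so many genes, values of this size describe the ranking only.

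Other ER folding genes, from a list of 35, were read beside the members. Of 33 tested, 21 were higher in CKO and 12 lower, edgeR called 0 and the median log2 difference was 0.18. Their summed level was 4039.5 ± 231 TPM in the CKO and 3657 ± 31.3 TPM in the control, with all 3 CKO libraries above all 3 controls. Gene by gene in CPM, 2 of the 33 lay wholly above the controls and 1 wholly below. Over all genes the shares were 4.99% and 4.62%. The sum was not tested, and a few abundant genes weigh most in it. The most abundant were Selenof, a selenoprotein that binds the glucosyltransferase of the folding cycle, at 841 ± 33.6 against 820.3 ± 125 TPM, and Cnpy2 at 457 ± 108 against 420.1 ± 102 TPM. Fkbp2, a prolyl isomerase, stood at 265 ± 29.0 TPM in the CKO and 165 ± 39.1 TPM in the control (log2 difference 0.68 ± 0.34, SE). In TPM, the genotype means of Fkbp2, and of Ppib below, lay further apart than those of Selenof and Cnpy2. Cnpy3, a chaperone for Toll-like receptors that works with Hsp90b1, stood at 33.2 ± 14.7 against 69.4 ± 6.29 TPM (log2 difference -1.02 ± 0.44).

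Several folding genes were taken for their role, outside the rule for named genes. Ppib (cyclophilin B) stood at 486 ± 89.3 against 353 ± 93.6 TPM, Creld2 at 284 ± 65.2 against 229 ± 5.06 TPM and Dnajc3 at 158 ± 18.3 against 131 ± 26.04 TPM. P4hb, the classical disulfide isomerase, stood at 54.5 ± 8.04 against 72.3 ± 21.9 TPM (SD, n = 3 each). Each of these genes overlapped between the genotypes. Their log2 differences, in the same order, were 0.45 ± 0.29, 0.30 ± 0.22, 0.26 ± 0.20 and -0.39 ± 0.26 (SE). Dnajb11, a J-domain partner of Hspa5, was at 15.7 TPM in CTR 1 and at 54.7 to 115 TPM in the other 5 libraries, so it too was low in that library. Hyou1, the large ER Hsp70 that exchanges nucleotide on Hspa5, was at 0.651 TPM or less in every library and was not tested.

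Regulators and targets of the unfolded protein response ranged from genes above several of the chaperones to genes near 0. Of 21 genes, 14 could be tested, 5 higher in CKO and 9 lower, edgeR called 0 and the median log2 difference was -0.26. Creb3 (136 ± 12.4 against 127 ± 18.4 TPM) and Eif2s1, the translation factor subunit that PERK phosphorylates (86.1 ± 13.5 against 60.7 ± 22.9 TPM), were the most abundant. Herpud1, a target of the response, stood at 51.0 ± 19.2 against 74.7 ± 25.8 TPM. Taken for their role, Xbp1 stood at 120.5, 93.6 and 40.0 TPM in the CKO libraries and at 80.7, 58.6 and 20.2 TPM in the controls, and Ddit3 (CHOP) at 62.2, 23.9 and 20.1 against 40.6, 35.9 and 39.4 TPM. Both overlapped between the genotypes. So did Atf4, at 0.109, 3.51 and 0.654 against 16.9, 0 and 18.8 TPM (log2 difference -3.12 ± 2.43, SE). The sensor genes Atf6 (0 to 3.28 TPM), Ern1 (0 to 2.16 TPM) and Eif2ak3 (0 to 1.97 TPM) were low in all libraries.

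The remaining ER lists gave 0 calls by edgeR. Among ER-associated degradation genes, which clear misfolded proteins, 13 of 23 tested were higher and 10 lower (median 0.11), with Selenok at 947 ± 48.1 against 863 ± 65.5 TPM, Selenos at 643 ± 16.2 against 499.95 ± 162 TPM and the lectin Os9 at 11.8 ± 2.00 against 30.1 ± 13.5 TPM. Their summed TPM was also above every control in every CKO library (2397, 2527 and 2396 against 1944, 2204 and 2362). Yet in CPM 0 of these genes lay wholly above the controls and 3 wholly below, against 4.99% and 4.62% of all genes. Of 24 translocon and signal peptide genes, 8 were higher and 16 lower (median -0.11). Spcs1, of the signal peptidase, stood at 933 ± 159 against 1063 ± 102 TPM and Ssr2, of the translocon, at 160.1 ± 39.0 against 107 ± 32.9 TPM. N-glycosylation genes were 9 higher and 5 lower of 14 (median 0.03), with Dad1 at 696 ± 65.7 against 689 ± 37.2 TPM and the trimming enzyme gene Ganab at 11.9 ± 3.004 against 7.64 ± 3.28 TPM.

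Export and retrieval genes were 16 higher and 9 lower of 25 (median 0.22). Tmed2 stood at 569 ± 45.5 against 579 ± 73.4 TPM, and Kdelr3, a receptor that returns escaped chaperones to the ER, at 42.6 ± 7.30 against 24.1 ± 4.23 TPM. Its paralog Kdelr2 stood at 128 ± 7.27 against 124 ± 33.0 TPM. ER calcium genes were 4 higher and 8 lower of 12 (median -0.07), with Rcn2 at 722 ± 27.1 against 758 ± 166 TPM. Set beside these medians, that of all genes tested was 0.00441, and no list was tested as a set. List medians were recomputed with DESeq2 size factors, with total counts only, with limma on log2(TPM + 1), with the replicate block and without each library. Those of the other folding, unfolded protein response and export lists kept their sign in these fits. The median of the 10 chaperones ran from -0.02, without CTR 1, to 0.16 and so changed sign. Those of the degradation (-0.12 to 0.15), translocon (-0.18 to 0.01), N-glycosylation (-0.02 to 0.13) and calcium lists (-0.20 to 0.13) also changed sign.

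**Figure D5:**
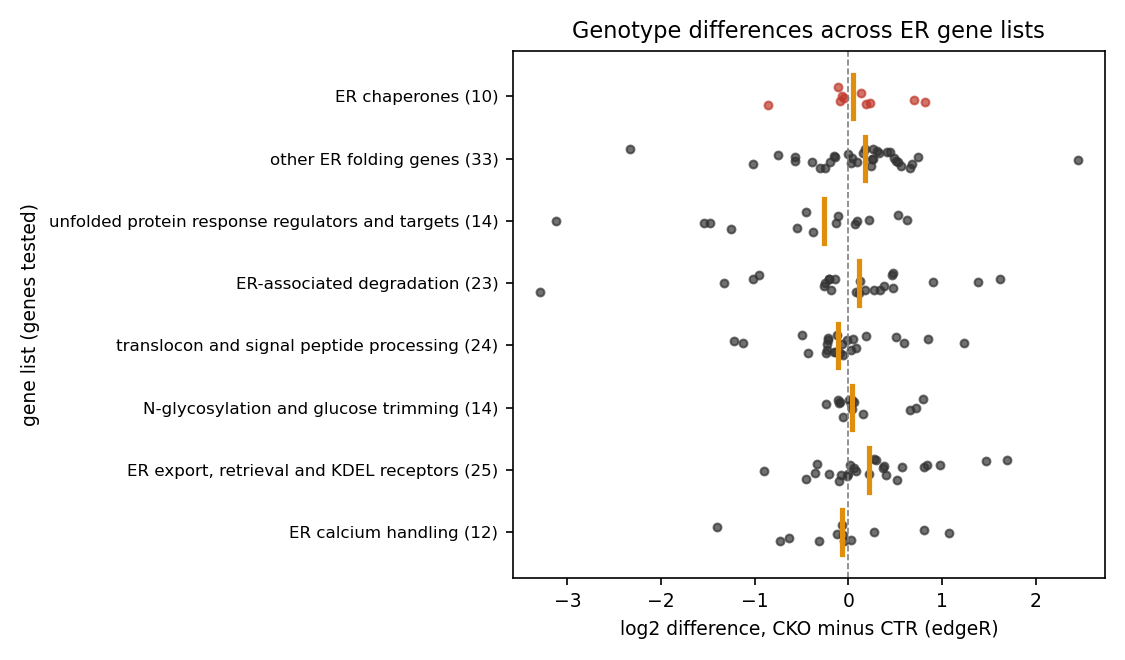
Log2 differences, CKO minus CTR, of the tested genes of each ER list (x axis), 1 point per gene with vertical jitter, the number tested in brackets and an orange bar at each list's median. The medians run from -0.26 to 0.22, and the chaperones in red have a median of 0.04 with Calr and -0.05 without it.

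Ependymal markers, of the cell type named in the labels, were high in every library. The 12 markers, among them Nnat, Rarres2 and Tmem212, summed to between 46748 and 49482 TPM. Markers of other cells were lower. All 10 endothelial markers averaged under 1 TPM, with Pecam1, Cldn5 and Cdh5 at 0, and neuron markers summed to 209.8 to 440.2 TPM, most of it Ppp1r1b, with Rbfox3 at 0. Choroid plexus markers, from a secretory epithelium, summed to 338 to 1200.7 TPM (exact two-sided permutation p = 0.7 between genotypes), at a mean of 840.2 ± 448 for CKO and 702 ± 133 for CTR. Ttr stood at 270.1 ± 261 against 99.9 ± 81.9 TPM, Enpp2 at 158 ± 120.02 against 70.1 ± 67.4 TPM and Folr1 at 364 ± 62.5 against 495 ± 75.0 TPM, with Aqp1 and Kcne2 at 0. All 3 overlapped between the genotypes. Oligodendrocyte markers summed to 99.9 TPM in CTR 1 and to 200.4 to 328 TPM in the other 5 libraries. Microglial markers summed to 125 to 170.3 TPM, those of mural cells to 218 to 402 TPM, of neuroblasts to 275 to 468 TPM and of astrocytes and stem cells to 2078 to 3344 TPM, with overlapping genotypes in each. Their part in the levels of the chaperone genes was not tested. Fewer cells of a type and less RNA per cell cannot be told apart in such bulk libraries.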

How the data were processed

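Per the labels, RNA of 3 CKO and 3 CTR libraries of sorted ependymal cells was sequenced. The submitters' processing notes name CASAVA 1.8, cutadapt 1.11 and kallisto 0.42.5. Their build and annotation: not given in the sources used here. For each gene the authors deposited an estimated count and a TPM level, as read from the file headers. The deposited estimated counts were rounded to whole numbers. The deposited TPM values, whose sum is equal across libraries, were used unchanged for levels. Total counts per library ran from 13401499 to 15689579.

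Counts were filtered with filterByExpr, TMM-scaled and fitted in edgeR 4.0.16 (quasi-likelihood test, robust, genotype only) in R 4.3.3, with Benjamini-Hochberg adjustment over all genes and a threshold of 0.05. Alternatives were DESeq2 1.42.0, limma 3.58.1 (voom, and log2 TPM with pseudocounts of 1 and 0.1), other scalings and filters, the replicate block, and each library left out. Log2 CPM had a prior count of 2. Coordinates are from GENCODE M21 (99.1% of identifiers matched), and promoters from RefSeq on GRCm38.p6.

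The members, the gene lists and the tests were chosen with earlier results of these data known. Named genes were Ccn1, the members, the 2 highest and the 2 of smallest edgeR p in each other list, the 3 highest of each marker list and the 5 most alike genes, and a part of these is given. Hm13, on the degradation list, was not analysed here.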

Additional observations from a re-analysis of the deposited data

How the results depend on the processing

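The count of genes called was 0 in all settings but DESeq2 without filterByExpr, which called 198, and the cause was not tested. The count of members called was 0 in 10 of 10 alternatives and in 6 of 6 fits without 1 library. Ccn1 ran from -2.27 to -2.21 over the alternatives and from -2.50 to -1.97 without 1 library.

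Calr kept its sign throughout (0.81 to 0.86, and 0.58 to 0.96 without 1 library), as did Hsp90b1 (0.69 to 0.77, and 0.43 to 1.09). Dnajb9 turned to 0.13 with limma-voom, to 0.13 on log2(TPM + 1) with and without the filter, to 0.13 on log2(TPM + 0.1), and to 0.12 with the replicate block. Without 1 library Dnajb9 ran from -0.41 to 0.50, Pdia4 from -0.28 to 0.15 and Manf from -0.13 to 0.39. The cause was not tested.

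Without mitochondrially encoded genes the summed TPM of the CKO was 2119.9 in place of 1849, since the remaining genes are then scaled up in each library. Without 1 library the sum ran from 1825 to 1866 in CKO and from 1560.2 to 1921 in CTR, and 2 to 3 of 9 neighbour pairs kept 1 order in every remaining library. Libraries with the same replicate number had correlated deviations of 0.0080 to 0.031, and each library correlated best with its own number. Values this small do not decide whether the numbers pair the samples, which is not given. With the replicate block 0 genes and 0 members were called and Ccn1 stood at -2.27. Sdf2l1 rests on the fewest counts, down to 49 in CKO 1, and ran from -1.23 to -0.86 over the alternatives and from -1.49 to -0.39 without 1 library.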
